A study of Mus musculus with 6 samples.

Results

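Calcoco2 encodes an autophagy receptor, and it is described here with the genes of 5 further receptors and of 4 ATG8 proteins to which such receptors bind. The 10 genes were taken by name from a table of 31265 genes, and all 10 were in it. They are Calcoco2, Calcoco1, Tax1bp1, Optn, Sqstm1 and Nbr1 among the receptors, and Map1lc3a, Map1lc3b, Gabarap and Gabarapl2 among the ATG8 genes. The group was chosen by the oxidized against reduced FPKM values of Calcoco2, known from earlier work on these data to be lower in oxidized cells, and the other genes were added by role. The oxidized against reduced values of all 10 genes are therefore a description, given without a p-value.

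The cells were mouse E14Tg2a embryonic stem cells, labelled wild type, and every library came from cells that carried the glutathione redox sensor Grx1-roGFP2 in the nucleus. They were grown as embryoid bodies, aggregates in which the germ layers begin to form, for 5 days without the inhibitors and LIF of the stem cell medium. Live cells were then sorted by the sensor's ratio into the 10% most oxidized (D5_ox) and the 10% most reduced (D5_red) of each of 3 populations, A, B and C. This gave 3 libraries in each group. What set the populations apart (clone, culture or day) is not in the labels. The test on group alone is judged against the spread between these populations. Tests that also fit the population are judged against what varies beyond group and population.

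Selective autophagy delivers chosen cargo to the lysosome. A receptor binds the cargo, often through ubiquitin, and binds an ATG8 protein on the growing autophagosome membrane through a short LC3-interacting motif. The ATG8 proteins fall into the LC3 and the GABARAP subfamilies, and each is cut by an ATG4 protease and joined to a membrane lipid through the glycine that the cut exposes. The human protein CALCOCO2, also called NDP52, is known for binding damaged vacuoles, bacteria and mitochondria. Whether the mouse protein does so was not measured in these cells. Calcoco1 and Tax1bp1 are related to Calcoco2 in sequence.

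The ends of the 4 ATG8 coding sequences show the feature that the family shares and how far the genes differ elsewhere, which bears on whether fragments of one gene could be counted for another. The last 60 bases of the coding sequence of each gene's first listed transcript in GENCODE vM21 are printed 5′ to 3′ and end in the stop codon. Capitals mark the last glycine codon.
Map1lc3a: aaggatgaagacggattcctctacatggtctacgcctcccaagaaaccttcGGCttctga
Map1lc3b: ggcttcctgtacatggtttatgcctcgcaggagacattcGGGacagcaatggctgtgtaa
Gabarap: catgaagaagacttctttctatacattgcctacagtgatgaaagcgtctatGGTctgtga
Gabarapl2: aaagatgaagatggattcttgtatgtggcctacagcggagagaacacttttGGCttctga
Map1lc3b has 5 codons between this glycine codon and the stop, and the other genes have 1. Over the whole coding sequence, Map1lc3a and Map1lc3b were identical at 76.0% of aligned bases, and Gabarap and Gabarapl2 at 61.9%. Pairs across the subfamilies were identical at 51.4% to 56.1%. The longest exact run that any pair shared was 15 bases, so no longer stretch of coding sequence is common to any 2 of these genes.

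Values are FPKM, fragments scaled to transcript length and library total, which may be compared between genes. The spacing of low values gave 1.18e+07 to 1.79e+07 fragments as each library's estimated depth. By this estimate the libraries of population C were the shallowest in both groups. Only 36.8% to 38.8% of low values fell on whole steps, so the estimate is uncertain. Oxidized A and B stood apart from the other libraries in mitochondrially encoded mRNA, which summed to 7348 and 5160 FPKM against 2324 to 3917 FPKM. Of 18 markers of the cell types that embryoid bodies can hold, 0 were listed at 0 in any library. Pou5f1, Sox2 and Nanog, which mark pluripotent cells, summed to 124.1 to 261 FPKM in oxidized and 237.4 to 292.2 FPKM in reduced libraries. Of these, Sox2 and Nanog overlapped between groups, while Pou5f1 was lower in oxidized libraries, at 73.0 to 150.8 against 168.3 to 199.5 FPKM.

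Calcoco2 (chr11:96099326-96111964, minus strand, mm10) was lower in every oxidized library than in any reduced library. It was at 6.52, 7.01 and 6.47 FPKM in oxidized libraries A, B and C. In reduced libraries A, B and C it was at 16.2, 18.1 and 16.9 FPKM. The spread within each group is small beside the gap between the groups. The group means were 6.66 ± 0.298 FPKM and 17.1 ± 0.954 FPKM (SD, n = 3 each), a level 2.56-fold higher in reduced cells. On the log2(FPKM + 1) scale the oxidized minus reduced difference was -1.24 with a standard error of 0.14.

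The difference in Calcoco2 was nearly the same in each population. The oxidized level was 40.1%, 38.7% and 38.4% of the reduced level in A, B and C. In population C oxidized mitochondrial mRNA was within the reduced range. Without oxidized A and B together the log2 difference was -1.27. Whether mitochondrial mRNA has a part in the Calcoco2 values was not tested. The 1621-base transcript that the table lists for Calcoco2 would correspond to an estimated 124 to 173 fragments in the oxidized and 342 to 499 in the reduced libraries. Of its distinct 50-base stretches, 10.2% also occur in another gene, mostly in Gm11701, which was at 0.0977 FPKM or lower in every library. No annotated gene overlaps Calcoco2.

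limma with Benjamini-Hochberg adjustment over all 12191 genes whose mean reached 1 FPKM called 97 genes at an adjusted p under 0.05, which is 0.796% of those tested (0.517% higher and 0.279% lower in oxidized cells). All 10 genes passed that minimum, and 1 of them, Calcoco2, was called. As the genes were chosen with this contrast known, that count carries no weight. With the population as a block the count was 0. It was also 0 without oxidized A, without oxidized B, without reduced A or without reduced B, and 1 without oxidized C or reduced C.

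**Figure D1:**
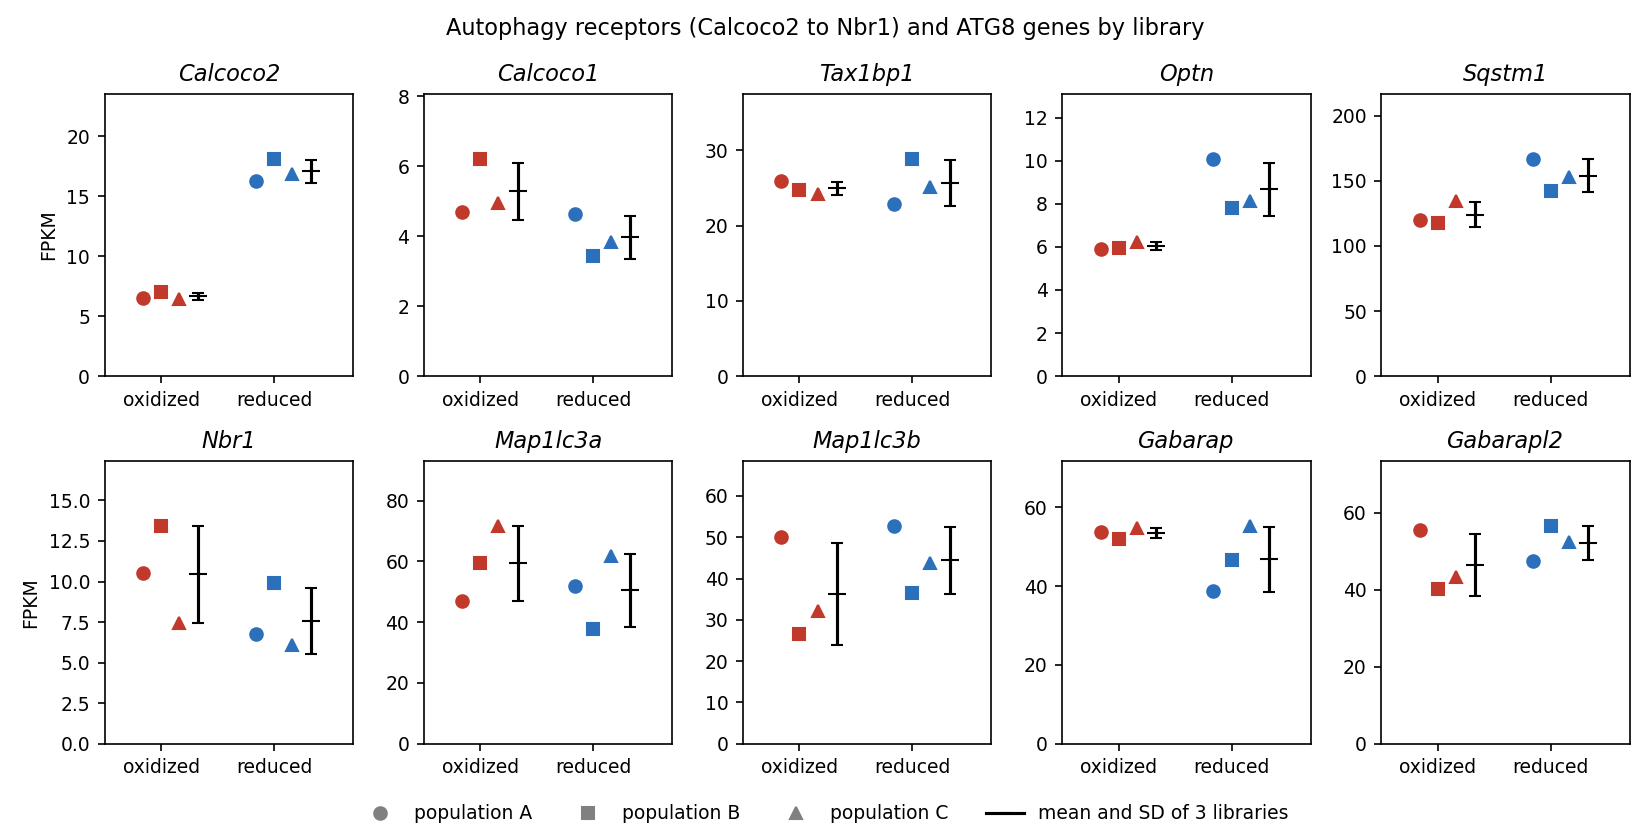
FPKM (vertical axes, each from 0) of the 6 receptor genes and the 4 ATG8 genes in the 3 oxidized and 3 reduced libraries, with a symbol for each population and the mean with SD beside them. Calcoco2 lies between 6.47 and 7.01 FPKM in the oxidized and between 16.2 and 18.1 FPKM in the reduced libraries, while the groups of 6 other genes overlap.

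The 2 relatives of Calcoco2 had smaller differences, one positive and one near 0. Calcoco1 (chr15:102706777-102722178), first described as a coactivator of transcription and also a receptor for the endoplasmic reticulum and Golgi, was at 4.70, 6.21 and 4.94 FPKM in oxidized libraries A, B and C. It was at 4.64, 3.43 and 3.83 FPKM in reduced libraries A, B and C. The lowest oxidized value was thus just above the highest reduced one, and population A showed almost no difference, 0.02 on the log2(FPKM + 1) scale against 0.70 in B and 0.30 in C. The group means were 5.28 ± 0.814 and 3.96 ± 0.616 FPKM (SD, n = 3 each), a log2 difference of 0.34 (SE 0.17). Calcoco1 was at 72.1% to 88.7% of the Calcoco2 level in oxidized libraries and at 18.9% to 28.5% in reduced ones.

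Tax1bp1 (chr6:52713729-52766780), a ubiquitin-binding receptor that also restrains inflammatory signalling, was at 25.9, 24.8 and 24.2 FPKM in oxidized libraries A, B and C. In reduced libraries A, B and C it was at 22.9, 28.9 and 25.2 FPKM. The oxidized values lie inside the reduced range, and the log2 difference was -0.03 (SE 0.15), which turned to 0.05 without reduced B. The Tax1bp1 level was 3.54 to 3.97 times that of Calcoco2 in oxidized libraries and 1.41 to 1.59 times in reduced ones.

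Optn, the gene of optineurin (chr2:5020642-5064051), a receptor for mitochondria and bacteria that the kinase TBK1 activates, was at 5.92, 5.95 and 6.23 FPKM in oxidized libraries A, B and C. It was at 10.1, 7.81 and 8.14 FPKM in reduced libraries A, B and C. The groups do not overlap, and reduced A is the highest library. The means were 6.03 ± 0.172 and 8.68 ± 1.23 FPKM (SD, n = 3 each), a log2 difference of -0.45 (SE 0.16). Within the populations the log2 differences were -0.68 in A, -0.34 in B and -0.34 in C. An antisense gene inside Optn, 4930551O13Rik, was listed at 0 in all 6 libraries.

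Sqstm1, the gene of p62 (chr11:50199366-50210827), was the most abundant of the 10 genes. The p62 protein gathers ubiquitin-tagged cargo into bodies and also holds KEAP1, the inhibitor of the antioxidant factor NRF2. Sqstm1 was at 119.5, 117.5 and 134.7 FPKM in oxidized libraries A, B and C, and at 166.9, 142.1 and 152.9 FPKM in reduced libraries A, B and C. Every oxidized library was below every reduced one, with oxidized C and reduced B the closest pair. The means were 123.9 ± 9.42 and 154.0 ± 12.4 FPKM (SD, n = 3 each), a log2 difference of -0.31 (SE 0.15). Without oxidized A and B the difference was -0.19. Sqstm1 ends over 750 bases of Mrnip on the other strand, which holds 15.5% of the 50-base stretches of Sqstm1, so its value is uncertain if fragments were counted without strand. Mrnip was at 10.3 to 13.7 FPKM in oxidized and 8.18 to 10.9 FPKM in reduced libraries.

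Nbr1 (chr11:101552149-101581951), a receptor that binds ubiquitin and works beside p62, was at 10.51, 13.4 and 7.43 FPKM in oxidized libraries A, B and C. In reduced libraries A, B and C it was at 6.78, 9.91 and 6.08 FPKM. The groups overlap, yet the oxidized library was the higher one within each population, by 0.57, 0.40 and 0.25 on the log2(FPKM + 1) scale. The means were 10.45 ± 2.99 and 7.59 ± 2.03 FPKM (SD, n = 3 each), a log2 difference of 0.41 (SE 0.24). Without oxidized A and B, which sets oxidized C against reduced A, B and C and so mixes populations, the difference was -0.00091. Population B was the highest in both groups.

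The 4 ATG8 genes had levels close to each other, and the oxidized and reduced values of each overlapped. Map1lc3a (chr2:155276297-155278073), which encodes LC3A, was at 46.9, 59.6 and 71.6 FPKM in oxidized libraries A, B and C and at 52.0, 37.8 and 61.8 FPKM in reduced libraries A, B and C. Its log2 difference was 0.23 (SE 0.23), with the reduced library higher in population A and the oxidized library higher in B and C. Gabarap (chr11:69991143-69994951), named for binding a GABA receptor, was at 53.7, 52.0 and 54.7 FPKM in oxidized libraries A, B and C. In reduced libraries A, B and C it was at 38.7, 46.5 and 55.2 FPKM, so reduced C was above every oxidized library. Its log2 difference was 0.20 (SE 0.17).

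Map1lc3b (chr8:121590361-121598760), which encodes LC3B, the form most used to follow autophagosomes, was at 50.1, 26.5 and 32.1 FPKM in oxidized libraries A, B and C. It was at 52.7, 36.6 and 43.8 FPKM in reduced libraries A, B and C. Population A was the highest in both groups, and the oxidized library was the lower one in each population, by 0.07, 0.45 and 0.44 on the log2(FPKM + 1) scale. The log2 difference of the means was -0.32 (SE 0.25). Of the 50-base stretches of Map1lc3b, 6.01% occur in other genes. Gm6055, at 24.3 to 38.3 FPKM, holds 3.67% of them, so the Map1lc3b level is uncertain. Gm20388, a protein-coding gene on the same strand, overlaps all 8400 bases of Map1lc3b. Its gene ID is not among the genes with values, so its level is not known. The sum of Map1lc3b and Gm6055 was 54.4 to 79.4 FPKM in oxidized and 60.9 to 82.1 FPKM in reduced libraries.

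Gabarapl2 (chr8:111940703-111953612), which encodes GATE-16, was at 55.7, 40.3 and 43.4 FPKM in oxidized libraries A, B and C. In reduced libraries A, B and C it was at 47.6, 56.5 and 52.3 FPKM. The oxidized library was higher in population A and lower in B and C, and the log2 difference was -0.17 (SE 0.17). Of its 50-base stretches, 12.2% occur in other genes, mostly Gm3724, which was at 1.80 to 3.52 FPKM. The 4 ATG8 genes together summed to 178.3 to 206.3 FPKM in oxidized and 177.5 to 213.2 FPKM in reduced libraries, with ranges that nearly coincide.

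**Figure D2:**
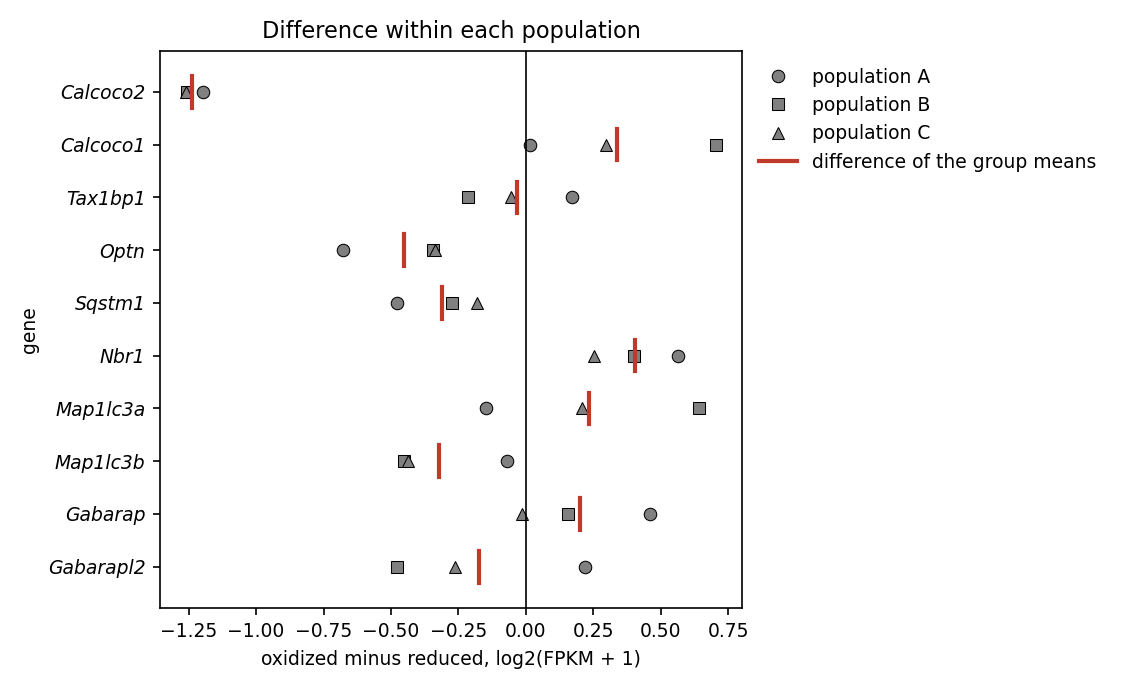
Oxidized minus reduced difference on the log2(FPKM + 1) scale (horizontal axis) for each of the 10 genes, with a symbol for each population and a red bar for the difference of the group means. The 3 symbols of Calcoco2 lie between -1.26 and -1.198, and the 3 symbols of Tax1bp1, Map1lc3a, Gabarap and Gabarapl2 lie on both sides of 0.

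Across the 10 genes, 3 were lower in oxidized cells with no overlap between groups (Calcoco2, Optn and Sqstm1) and 1 was higher (Calcoco1). Of all 12191 genes tested, 25.0% had groups that do not overlap, 8.81% lower and 16.2% higher. The oxidized library was the lower one in all 3 populations for 4 genes (those 3 and Map1lc3b) and the higher one for 2 (Calcoco1 and Nbr1), while 4 genes differed in sign between populations. The median log2 difference was -0.10 over the 10 genes, -0.17 over the receptors and 0.01 over the ATG8 genes, beside 0.08 over all genes tested. Calcoco2 made up 3.52% to 4.01% of the summed FPKM of the 6 receptors in oxidized libraries and 7.14% to 8.62% in reduced ones. The summed receptor level was 173.1 to 184.0 FPKM in oxidized and 210.2 to 227.5 FPKM in reduced libraries, and Sqstm1 made up 67.2% to 73.3% of it in every library.

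By level over the 6 libraries, Sqstm1 (mean 138.9 FPKM) came first and did not overlap with the next gene. Map1lc3a (55.0), Gabarap (50.1), Gabarapl2 (49.3), Map1lc3b (40.3) and Tax1bp1 (25.3 FPKM) followed, each with a range that overlapped that of the next in this order. The lowest Tax1bp1 value was above the highest Calcoco2 value. Below it came Calcoco2 (11.9), Nbr1 (9.02), Optn (7.36) and Calcoco1 (4.62 FPKM), whose ranges overlapped from one to the next. Calcoco2 was above each of Nbr1, Optn and Calcoco1 in every reduced library. In the oxidized libraries it was below Nbr1 in all 3 populations.

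Differences between the populations are estimated apart from the oxidized against reduced difference, so they were tested. In a limma fit of group and population, the F test of the population called 16 of 12191 genes, or 0.131%, and 0 of these 10, while 652 genes had an unadjusted p under 0.05. Unadjusted p-values under 0.05 were found for 2 of the 10 genes. Nbr1 averaged 8.65, 11.7 and 6.76 FPKM over the 2 libraries of A, B and C (limma adjusted p = 0.897). Map1lc3b averaged 51.4, 31.5 and 38.0 FPKM (limma adjusted p = 0.897). Calcoco2 averaged 11.4, 12.6 and 11.7 FPKM (limma adjusted p = 0.979). Choosing Calcoco2 by its contrast in these same libraries can favour a small spread between populations, so its p-value here carries no weight.

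Of 74 further autophagy genes listed by role, 68 passed the minimum of 1 FPKM and limma called 0 of them, higher or lower, beside 0.796% of all genes. Unadjusted p-values under 0.05 were found for 7 of the 68, and for 2371 of all 12191 genes. The 68 genes had a median log2 difference of -0.00080, with 33 positive and 35 negative. Groups that do not overlap were found for 6 higher and 4 lower genes of the 68, beside 16.2% higher and 8.81% lower of all genes tested. Without oxidized C limma called 4 of them, Ulk2, Pink1 and Lamp2 higher and Atg2b, named after its values were seen, lower. In that setting limma called 1204 of all 12201 genes tested, so these 4 calls do not set the autophagy genes apart.

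None of the 17 other cargo receptors was called (median log2 difference -0.04). Phb2, an inner mitochondrial membrane receptor and the most abundant of them, was at 194.2 ± 6.81 against 177.6 ± 16.6 FPKM, oxidized against reduced (n = 3 each, limma adjusted p = 0.663). Atl3, a receptor of tubular endoplasmic reticulum, had the smallest p, at 1.08, 0.95 and 1.598 FPKM in oxidized libraries A, B and C. It was at 1.79, 2.87 and 2.04 FPKM in reduced libraries A, B and C (log2 difference -0.55, limma adjusted p = 0.188, and -0.30 without oxidized A and B). The groups of Atl3 do not overlap, at a level near the minimum.

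Of the 12 genes of ATG8 conjugation, 11 passed the minimum and 0 were called (median log2 difference -0.04). Gabarapl1, an ATG8 gene outside the 4 above, was at 51.1 ± 2.91 against 49.0 ± 3.67 FPKM (n = 3 each, log2 difference 0.06, limma adjusted p = 0.843), and this sign turned under other scalings. Atg4b, a protease that cuts ATG8 proteins, was at 12.4, 12.5 and 10.8 FPKM in oxidized libraries A, B and C. It was at 9.28, 9.20 and 10.4 FPKM in reduced libraries A, B and C (log2 difference 0.28, limma adjusted p = 0.331, and 0.16 without oxidized A and B).

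The 22 genes of initiation and membrane supply had a median log2 difference of 0.01, with 0 called. Ulk2, a kinase that starts autophagosome formation, was at 3.97, 4.63 and 3.22 FPKM in oxidized libraries A, B and C, and at 1.199, 1.33 and 2.15 FPKM in reduced libraries A, B and C. Every oxidized library was above every reduced one, with a log2 difference of 0.96 (SE 0.20, limma adjusted p = 0.0752). The limma adjusted p was 0.0151 without oxidized C, 0.0599 to 0.28 without any other 1 library and 0.122 with the population as a block. Without oxidized A and B the Ulk2 difference was 0.74. Its relative Ulk1, named after its values were seen, was at 8.56, 13.3 and 14.5 FPKM in oxidized libraries A, B and C. In reduced libraries A, B and C it was at 19.2, 16.04 and 16.1 FPKM. Here the groups do not overlap in the other direction (log2 difference -0.49, limma adjusted p = 0.244). Atg101, a subunit of the ULK complex and the most abundant of this list, was at 69.2 ± 4.92 against 80.7 ± 14.8 FPKM (n = 3 each, limma adjusted p = 0.552).

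Of 10 kinases, adaptors and triggers of the receptors 8 passed the minimum and 0 were called (median log2 difference 0.08). Pink1, a kinase that marks damaged mitochondria for receptors, was at 13.8, 17.5 and 8.68 FPKM in oxidized libraries A, B and C. In reduced libraries A, B and C it was at 6.41, 5.94 and 6.53 FPKM. The log2 difference was 0.93 (SE 0.23, limma adjusted p = 0.109, and 0.00530 without oxidized C). Without oxidized A and B it was 0.41 (limma adjusted p = 0.456). Oxidized A and B were also the libraries with the most mitochondrially encoded mRNA, and whether this has a part in the Pink1 values was not tested. Nfe2l2, the gene of NRF2, was at 19.2 ± 2.32 against 21.1 ± 0.655 FPKM (n = 3 each, limma adjusted p = 0.647).

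Of 13 fusion and lysosome regulators 10 passed the minimum and 0 were called (median log2 difference 0.14). Lamp1, a glycoprotein of the lysosome membrane, was at 244.7, 246.6 and 248.1 FPKM in oxidized libraries A, B and C, and at 348.4, 328.9 and 302.2 FPKM in reduced libraries A, B and C. The groups do not overlap (log2 difference -0.40, SE 0.15, limma adjusted p = 0.204). Lamp2, its relative, was at 11.2, 9.76 and 5.15 FPKM in oxidized libraries A, B and C. It was at 3.41, 4.54 and 4.54 FPKM in reduced libraries A, B and C (log2 difference 0.86, SE 0.26, limma adjusted p = 0.144, and 0.00656 without oxidized C). Without oxidized A and B the Lamp2 difference was 0.26 (limma adjusted p = 0.676).

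**Figure D3:**
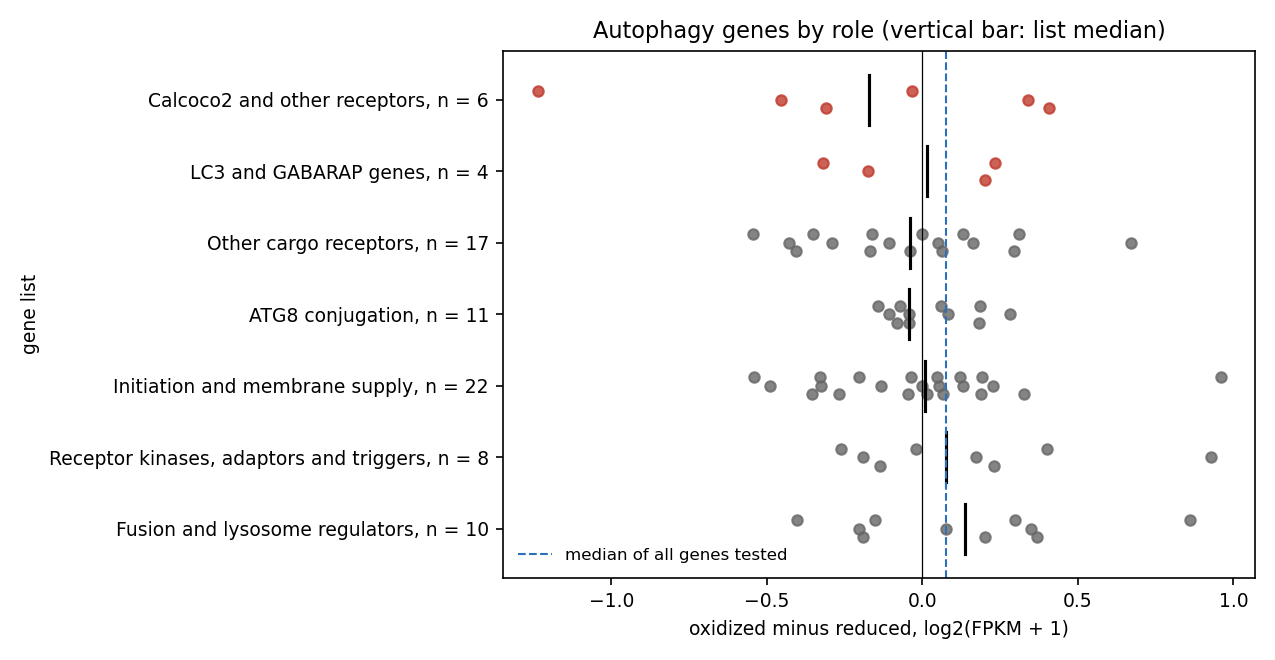
Oxidized minus reduced difference on the log2(FPKM + 1) scale (horizontal axis) of each measured gene, as points by role, with a black bar for the list median and a dashed line for the median of all genes tested, 0.08. Points are spread vertically for legibility. Calcoco2, chosen by this contrast, is the lowest point shown, at -1.24, and 46 of all 12191 genes tested had a lower difference.

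Of the genes compared, the 5 whose pattern over the 6 libraries was most like that of Calcoco2 were Zfp1, Sdad1, Tigar, Igtp and Metap1. Likeness was Pearson's r of log2(FPKM + 1), over 6370 genes whose mean reached 5 FPKM, and the 6 libraries share their 3 populations. The 10 genes and genes with provisional names, such as Gm numbers, Rik or accession-style names, were left out. Calcoco2 varied little within each group, so a high r mostly restates the oxidized against reduced split by which Calcoco2 was chosen. The values of r were 0.998, 0.990, 0.988, 0.987 and 0.985. Tigar, which encodes a phosphatase that limits glycolysis, was at 9.70, 9.57 and 8.11 FPKM in oxidized libraries A, B and C. It was at 16.6, 18.5 and 17.1 FPKM in reduced libraries A, B and C, close to Calcoco2 there. The log2 differences of Zfp1, Sdad1, Tigar, Igtp and Metap1 were -0.43, -0.37, -0.86, -0.63 and -0.46, so each is smaller than that of Calcoco2. Igtp encodes an interferon-inducible GTPase and Metap1 a methionine aminopeptidase. Among the other 9 genes of the group, r with Calcoco2 was highest for Optn (0.88) and Sqstm1 (0.82) and lowest for Calcoco1 (-0.76). These are also the other genes of the group whose oxidized and reduced values do not overlap, a trait of 25.0% of all genes tested.

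**Figure D4:**
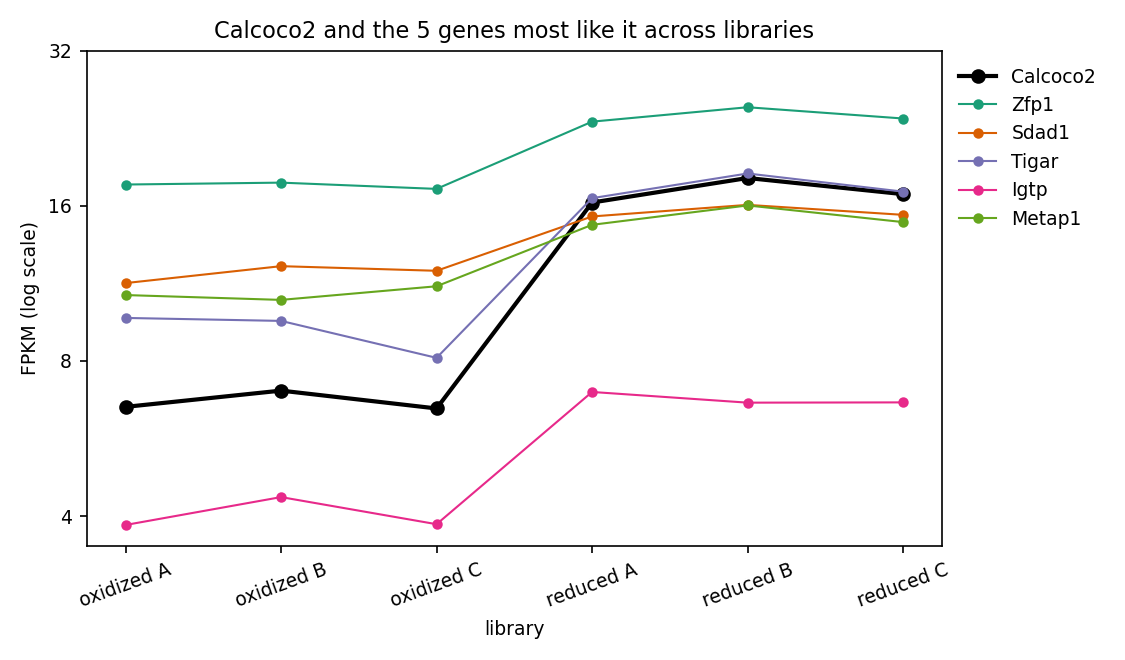
FPKM on a log axis of Calcoco2 (black) and of the 5 genes, of those compared, with the highest Pearson r to it, by library, where lines join the values of 1 gene. All 6 genes are lower in each oxidized library than in any reduced one, and Calcoco2 goes from 6.47 to 7.01 FPKM up to 16.2 to 18.1 FPKM. Calcoco2 was chosen by this contrast and the 5 others by their r with it, so the shared step restates that choice.

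In these bulk libraries, fewer cells that express Calcoco2 and less Calcoco2 mRNA per cell cannot be told apart. Some marker levels moved with the sort, though not all markers of a cell type did. The pluripotency marker Pou5f1 was lower in oxidized libraries, as given above. The primitive streak markers T, Mixl1 and Eomes summed to 7.94 to 15.6 FPKM in oxidized and 24.6 to 27.1 FPKM in reduced libraries. Of these, T separated the groups (3.47 to 5.59 against 14.6 to 15.0 FPKM), while Mixl1 and Eomes overlapped. The mesoderm markers Hand1, Kdr and Mesp1 summed to 136.9 to 197.0 against 72.9 to 107.7 FPKM, and most of that sum was Hand1 (126.6 to 187.6 against 62.9 to 97.6 FPKM). Kdr overlapped, and Mesp1 was lower in oxidized libraries, at 3.58 to 5.38 against 6.51 to 8.24 FPKM. The endoderm markers Sox17, Foxa2 and Ttr summed to 4.57 to 8.25 against 1.57 to 2.35 FPKM, with Sox17 overlapping. The fibroblast markers Col3a1 and Pdgfra summed to 9.43 to 18.8 against 2.76 to 5.78 FPKM, with Pdgfra overlapping. The neuroectoderm markers Pax6 and Sox1 (0.370 to 1.57 against 0.288 to 0.499 FPKM) and the blood markers Hbb-bh1 and Gata1 (42.7 to 273.9 against 18.1 to 306.1 FPKM) overlapped between groups. The part of these cell types in the receptor values was not tested.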

How the data were processed

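Poly(A) RNA of sorted day 5 embryoid body cells was sequenced as paired ends from stranded libraries, per the labels' protocols. In the 1 table that the authors deposited, each library has a column of FPKM values by gene, per the file headers. HISAT2, StringTie, cutadapt, FastQC, edgeR and mm10 are named without versions, per the submitters' processing notes. How multi-mapping fragments and strand were treated was not given in the sources used here. Deposited ratio, log2 and p-value or q-value columns are the authors' own comparison, per the file headers, and were not used.

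FPKM plus a pseudocount of 1 was put on the log2 scale, genes whose mean reached 1 FPKM were kept, and limma 3.58.1 in R 4.3.3 was fitted with eBayes and a mean-variance trend, on the group alone or, for the population F test, on group and population. The adjusted p threshold was 0.05. The fit was tested on simulated data. Log2 differences understate the change of low genes. Low FPKM times transcript length gave whole steps, within 2%, for 36.8% to 38.8% of values, so reads were not recovered; the step gave the estimated depth. Gene IDs matched GENCODE vM21 for 31182 of 31265 genes, and shared sequence was counted in stretches of 50 bases.

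Per the series' design text, each population gave an oxidized and a reduced library. The letters A, B and C were taken as the populations, so that a letter pairs the libraries. Deviations from group means correlated within a letter at -0.056 (A), 0.07 (B) and 0.20 (C). Between letters the values were -0.17 to 0.13. Oxidized A with reduced B (0.13) and oxidized B with reduced A (0.12) were above the same-letter values of A and B. The pairing of A and B thus rests on the letters and is not shown by the values. Members and lists were chosen with earlier results of these data known. Named genes are the 10, the most abundant and smallest-p gene of each of 5 lists, and the 5 genes most like Calcoco2. Alternatives were the block, other scalings, filters and pseudocount, no trend, a 2-fold minimum and leaving out libraries.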

Additional observations from a re-analysis of the deposited data

How the results depend on the processing

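The Calcoco2 difference was negative in every alternative run, at -1.33 with median-ratio scaling, -1.34 with quantile normalization, -1.34 with a pseudocount of 0.1, and -1.27 to -1.20 without 1 library. Of the other 9 genes only Tax1bp1 and Nbr1 changed sign, each in 1 of 10 alternatives. The 97 calls of oxidized against reduced became 4 with the population as a block, 1 without a filter, 11 without oxidized A and B, and 3 to 1204 without 1 library (1204 without oxidized C). The split of 63 higher and 34 lower became 57 and 51 with median-ratio scaling and 54 and 51 with quantile normalization. The called genes among the 10 became 0 with the block, without a filter and without oxidized A and B, and 0 to 1 without 1 library. Further autophagy genes called were 0 to 4 without 1 library. Population calls became 0 without a filter and 0 to 569 without 1 library, a choice made after seeing the data: 0 without oxidized B or reduced B, 217 without oxidized C and 569 without reduced C. The Gabarapl1 difference became -0.043 with median-ratio scaling, -0.022 with quantile normalization, -0.023 without oxidized A and B and -0.0018 to 0.10 without 1 library. The causes were not tested. A lone oxidized library is assumed to vary like the reduced ones. With 3 libraries a group, FPKM alone and unequal estimated depth, small differences in low genes may not be detectable.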
